A study of Mus musculus with 15 samples.

Results

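Nkx2-1, Six3, Six6, Rax, Nr5a1, Fezf1, Otp, Sim1, Hmx2 and Hmx3 encode transcription factors of the hypothalamus. They were taken by name, as genes known to mark the developing and adult hypothalamus, and their levels were followed by brain region and by diet. The 10 genes lie at 11 of 23589 named loci in the count table, because Fezf1 is listed at a locus on each strand.

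The hypothalamus is a set of small nuclei at the base of the forebrain that governs feeding, body temperature, reproduction, growth and stress hormones. Transcription factors that are switched on early in its development divide it into territories, and many of them stay on in the mature neurons or glia of the nucleus they helped to form. Several are also known from the eye, the pituitary, the gonads or the inner ear.

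By their known roles the members fall into 4 sets. Nkx2-1, Six3, Six6 and Rax are homeodomain factors of early forebrain and hypothalamic patterning. Nkx2-1 is required for the ventral hypothalamus, Six3 for the anterior forebrain and eye, Six6 for the eye and the reproductive axis, and Rax for the retina and for tanycytes, the glia that line the floor of the brain's central ventricle. Nr5a1, the nuclear receptor known as steroidogenic factor, and Fezf1, a zinc-finger factor, mark neurons of the ventromedial nucleus. Otp and Sim1 are needed for the neurosecretory neurons of the paraventricular and supraoptic nuclei. Hmx2 and Hmx3, a neighbouring pair of homeodomain genes, act in the inner ear and in the hypothalamus.

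The study asked whether changes in gene expression brought about by short-term dietary restriction remain after a return to free feeding. Male C57BL/6 mice were fed ad libitum (AL) to 5 months of age, fed 40% less food from 4 months of age for 1 month (DR, killed at 5 months), or restricted in the same way and then fed ad libitum again (DR-AL, killed at 7 months). RNA from 5 tissues was pooled from 5 mice of a diet group into 1 library per tissue and diet, 15 libraries in all. The 3 hypothalamus and 3 hippocampus libraries carry the main comparisons, and liver, fat and colon are given for the level outside the brain.

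Each tissue and diet thus has 1 library and no replicate, so a comparison of diets within a tissue is a comparison of libraries. The DR-AL mice were also older than the other groups, so diet and age cannot be told apart in that group. The counts on named loci were 29673910 for AL, 32745522 for DR and 31204690 for DR-AL in the hypothalamus, and 40500130, 31224299 and 25159857 in the hippocampus. Levels are given as counts per 1000000 counts on named loci (CPM), with 95% intervals that are exact for Poisson counts, and ratios carry exact Clopper-Pearson intervals; both cover counting error only.

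The tissue labels were checked against region markers. In the region comparison described next, 14 of 14 telencephalic transcription factor genes, 6 of 6 markers of telencephalic excitatory neurons and 9 of 9 hippocampus markers were lower in hypothalamus than in hippocampus, and 7 of 8 arcuate peptide genes were higher. Some other lists were mixed. Of 5 paraventricular and supraoptic peptide genes, 3 were higher and 1 lower, of 4 suprachiasmatic genes 3 and 1, and of 6 tanycyte markers 3 and 2.

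All 3 hypothalamus libraries lay above all 3 hippocampus libraries for each of the 10 members. Summed over the members, the AL, DR and DR-AL hypothalamus held 327.2, 259.6 and 174.8 CPM, against 1.8, 1.18 and 5.52 CPM in hippocampus. The members were chosen as hypothalamic genes, so this direction was fixed by the choice and is a check of the label. An edgeR quasi-likelihood fit with diet as a term called 10 of 10 higher in hypothalamus at a Benjamini-Hochberg adjusted p under 0.05, beside 34.6% of 15742 genes tested. All 10 passed the filter on low counts, but 9 of them, all except Six3, passed through the hypothalamus libraries alone. Of these 9, Nkx2-1 missed the filter narrowly in hippocampus, with 0.395, 0.32 and 0.994 CPM beside a filter of 0.32 CPM. The others had to differ.

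The region difference varied in size, though apart from Six3 many of the intervals overlapped. Six3 had the smallest ratio: 4522 counts over the 3 hypothalamus libraries and 167 over the 3 hippocampus libraries, 28-fold higher in CPM (95% interval 24 to 32.9; edgeR log2 fold change 4.56, SE 0.43, adjusted p = 2.13e-04). Nkx2-1 followed at 77.3-fold (58.7 to 104.0), with 3810 against 51 counts. In FPKM, Six3 was 9.68, 8.07 and 6.67 in the AL, DR and DR-AL hypothalamus and 0.3, 0.214 and 0.935 in hippocampus. Nkx2-1 was 11.9, 10.7 and 7.53 FPKM against 0.175, 0.165 and 0.437. For both genes the region difference was smaller in FPKM than in CPM. In CPM, Sim1 was 159.1-fold higher (80.5 to 369.4) and Otp 485.4-fold higher (271.1 to 973.0). For Six6, Rax, Fezf1, Hmx2 and Hmx3 the hippocampus held 1 to 4 counts in all, and the ratios ran from 261.8 for Hmx2 (46.6 to 10381.3) to 801.0 for Fezf1 (312.5 to 2941.5). Nr5a1 had 2543 counts in hypothalamus and 0 in hippocampus, which makes it at least 877.2-fold higher, taking a floor of 3 counts over the summed hippocampus libraries. This bound rests on the floor and is not an exact limit. Many of these ratios rest on 1 hippocampus library, as leaving out each library in turn, an alternative chosen after seeing the data, showed. Without the DR-AL hippocampus the ratio was 46.2 for Six3 (36.8 to 58.8). It was 471.1 for Sim1 (130.1 to 3894.8) and 1976.5 for Otp (546.9 to 16325.0). With 0 counts left, the exact lower limit was 642.6 for Fezf1 and 52.2 for Hmx2. Without the AL hippocampus the ratio was 466.1 for Fezf1 (181.9 to 1711.9) and 152.4 for Hmx2 (27.1 to 6041.6). For Nr5a1 the floor of 3 counts then gave 510.5, and the exact lower limit was 414.9.

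**Figure D1:**
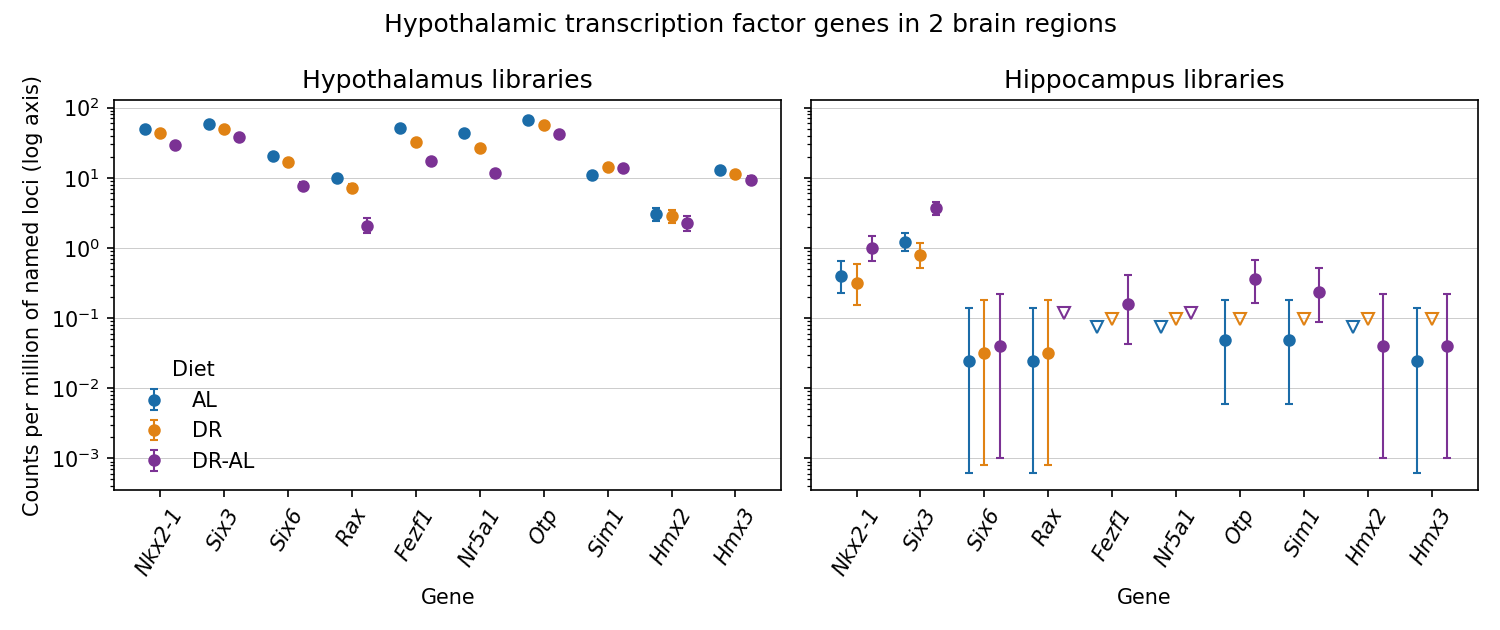
Level of each member in the 3 hypothalamus and 3 hippocampus libraries, in CPM on a log axis, with 95% Poisson intervals; each point is 1 pooled library, and hollow triangles mark the limit of 3 counts for a library with 0 counts. Every hypothalamus point lies above every hippocampus point of the same gene, and Rax, Nr5a1, Fezf1 and Six6 show the widest spacing between the AL and DR-AL hypothalamus points.

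Between genes, levels are compared on the FPKM scale, which accounts for transcript length. In the AL hypothalamus the order was Otp (13 FPKM), Fezf1 (12.2), Nkx2-1 (11.9), Six3 (9.68), Nr5a1 (7.51), Rax (3.28), Six6 (3.27), Hmx3 (3.07), Hmx2 (1.15) and Sim1 (0.834). Within this order the 95% counting intervals of Otp and Fezf1 overlapped, as did those of Fezf1 and Nkx2-1, of Rax, Six6 and Hmx3, and of Hmx2 and Sim1. In the DR-AL hypothalamus the order was Otp (8.62 FPKM), Nkx2-1 (7.53), Six3 (6.67), Fezf1 (4.51), Hmx3 (2.41), Nr5a1 (2.15), Six6 (1.28), Sim1 (1.2), Hmx2 (0.91) and Rax (0.73). Here the intervals overlapped for Nkx2-1 and Six3, for Hmx3 and Nr5a1, among Six6, Sim1 and Hmx2, and for Hmx2 and Rax (0.71 to 1.15 against 0.563 to 0.93). Fezf1, level with Nkx2-1 and above Six3 in AL, stood below both in DR-AL.

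Diet groups were compared pairwise with a Z test on square roots of count proportions, the kind of test the study used, at a Benjamini-Hochberg adjusted p under 0.05 over 19320 genes and a log2 fold change past 0.32 up or down. The test knows counting error only, so a call separates 2 libraries and does not measure the variation between mice. In bulk tissue, fewer cells of a type and less RNA per cell cannot be told apart. The 3 pairwise comparisons share libraries with one another, so their counts are not independent.

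After 1 month of restriction, 3 of 10 members were called lower in the DR than in the AL hypothalamus, Nr5a1, Fezf1 and Rax, beside 2.73% of all genes tested. Sim1 was the 1 member called higher, beside 4.33% of all genes. The median log2 fold change was -0.26 over the members and 0.01 over all genes tested. None of these 4 calls was kept when a fold change of at least 2 was required, or in edgeR's exact test with a biological coefficient of variation (BCV) set to 0.1.

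In the DR-AL hypothalamus, 8 of 10 members were called lower than in AL, beside 9.03% of all genes, and Sim1 alone was called higher, beside 6.06%. Hmx2 was the member with no call. The median log2 fold change was -0.71 over the members and -0.03 over all genes. With a fold change of at least 2 the calls were 4, for Rax, Nr5a1, Fezf1 and Six6, and an edgeR exact test with a BCV of 0.1 called 6, these 4 with Nkx2-1 and Otp.

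Between the restricted and the refed library, 7 of 10 members were called lower in DR-AL than in DR, beside 6.80% of all genes, and 0 were called higher, beside 2.82%. The 7 were Nkx2-1, Six3, Six6, Rax, Otp, Fezf1 and Nr5a1, and the median over the members was -0.48, against -0.03 over all genes. The call of Six3 was lost with DESeq size factors. A fold change of at least 2 left Six6, Rax and Nr5a1, and the exact test with a BCV of 0.1 left these 3 and Fezf1.

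Among the ventromedial genes, Nr5a1 had 1297, 878 and 368 counts in the AL, DR and DR-AL libraries, which are 43.7 CPM (41.4 to 46.2), 26.8 CPM (25.1 to 28.6) and 11.8 CPM (10.6 to 13.1). The AL library was highest and DR-AL lowest, with no overlap of the intervals. Nr5a1 fell 1.63-fold in DR against AL (1.5 to 1.78), 3.71-fold in DR-AL against AL (3.3 to 4.17) and 2.27-fold in DR-AL against DR (2.01 to 2.57).

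Fezf1, counted on its annotated strand, had 1503, 1043 and 550 counts in AL, DR and DR-AL, or 50.7 CPM (48.1 to 53.3), 31.9 CPM (29.9 to 33.8) and 17.6 CPM (16.2 to 19.2). It kept the order seen for Nr5a1, with separate intervals. The fall was 1.59-fold in DR against AL (1.47 to 1.72), 2.87-fold in DR-AL against AL (2.6 to 3.17) and 1.81-fold in DR-AL against DR (1.63 to 2.01). A pair of other genes active in the ventromedial nucleus, the peptide gene Adcyap1 and the glutamate transporter gene Slc17a6, showed 0 calls in DR against AL and 1 call, lower, in DR-AL against AL, with median log2 fold changes of -0.03 and -0.18. The lower call was that of Adcyap1, at 129.7, 127.5 and 101.8 CPM in AL, DR and DR-AL, while Slc17a6 was at 300.2, 292.7 and 299.0 CPM. Neither is particular to this nucleus: over the hippocampus libraries Adcyap1 had 879 counts and Slc17a6 had 3295. The part of ventromedial cell number in the results for Nr5a1 and Fezf1 was not tested.

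Rax, the tanycyte and retina factor, showed the largest ratio among the members in DR-AL against AL, with 295, 234 and 65 counts in the same libraries. These are 9.94 CPM (8.84 to 11.1), 7.15 CPM (6.26 to 8.12) and 2.08 CPM (1.61 to 2.65), with the DR-AL library far below the others. Rax fell 1.39-fold in DR against AL (1.17 to 1.66), 4.77-fold in DR-AL against AL (3.64 to 6.34) and 3.43-fold in DR-AL against DR (2.6 to 4.59). For DR-AL against AL its interval overlapped that of Nr5a1 (3.3 to 4.17).

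Other tanycyte markers varied beside Rax. Of 6, 2 were called higher and 1 lower in DR against AL, and 0 higher and 3 lower in DR-AL against AL; in DR-AL against DR, 0 were higher and 5 lower, with a median log2 fold change of -0.83. Their summed level was 316.1, 300.2 and 210.8 CPM in AL, DR and DR-AL, of which Col25a1 made 150.3, 135.2 and 122.9. The list is not particular to hypothalamic tanycytes: Crym and Dio2 were called lower in hypothalamus than in hippocampus (ratios of 0.0509 and 0.203), and Vim was not called. Vim had the highest FPKM of them in each library, and none was at 0. Gpr50, an orphan receptor of tanycytes, had 1844, 1260 and 583 counts and was called lower in both comparisons with AL. Dio2 had 455, 720 and 400 counts and Nes had 522, 728 and 451, both highest in DR. The part of tanycyte number in the result for Rax was not tested.

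Six6 had 609 AL, 555 DR and 240 DR-AL counts, or 20.5 CPM (18.9 to 22.2), 16.9 CPM (15.6 to 18.4) and 7.69 CPM (6.75 to 8.73). The 3 intervals did not overlap, but DR against AL stayed under the fold threshold and was not called (log2 fold change -0.28, interval -0.44 to -0.11). Against AL, Six6 fell 2.67-fold in DR-AL (2.29 to 3.11), and against DR it fell 2.2-fold (1.89 to 2.57).

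Nkx2-1 and Six3, the broader patterning genes, moved less. Nkx2-1 had 1469, 1414 and 927 counts in AL, DR and DR-AL, or 49.5 CPM (47 to 52.1), 43.2 CPM (41 to 45.5) and 29.7 CPM (27.8 to 31.7). It was not called in DR against AL (log2 fold change -0.20, interval -0.30 to -0.09) and fell 1.67-fold in DR-AL against AL (1.53 to 1.81). Six3 had 1736, 1597 and 1189 counts, or 58.5 CPM (55.8 to 61.3), 48.8 CPM (46.4 to 51.2) and 38.1 CPM (36 to 40.3). Its log2 fold change in DR against AL was -0.26 (-0.36 to -0.16), under the fold threshold, and in DR-AL it fell 1.54-fold against AL (1.43 to 1.65).

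The paraventricular pair differed from each other. Otp had 2006, 1841 and 1313 counts across AL, DR and DR-AL, or 67.6 CPM (64.7 to 70.6), 56.2 CPM (53.7 to 58.8) and 42.1 CPM (39.8 to 44.4), the highest CPM of any member in each of the 3 libraries. It was not called in DR against AL (log2 fold change -0.27, interval -0.36 to -0.17) and fell 1.61-fold in DR-AL against AL (1.5 to 1.72). Sim1 had 320, 472 and 438 counts, or 10.8 CPM (9.63 to 12), 14.4 CPM (13.1 to 15.8) and 14 CPM (12.8 to 15.4). For Sim1 the AL library was lowest, and the intervals of DR and DR-AL overlapped. It rose 1.34-fold in DR against AL (1.16 to 1.55) and 1.3-fold in DR-AL against AL (1.12 to 1.51). Neither call of Sim1 was kept in the exact test with a BCV of 0.1.

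Peptide genes of the same nuclei were read beside the pair. Of Avp, Oxt, Crh, Trh and Sst, 1 was called higher and 2 lower in DR against AL, and 2 higher and 2 lower in DR-AL against AL. Their summed level was 926.3, 714.2 and 573.3 CPM, with Avp the highest on the FPKM scale in each library. Sst made 215.5, 156.0 and 127.5 CPM of these sums. The list is not particular to these nuclei: Sst was called lower in hypothalamus than in hippocampus (ratio of 0.693), and Crh was not called. Avp, the vasopressin gene, had 13982, 8745 and 4920 counts in AL, DR and DR-AL. Trh, the thyrotropin-releasing hormone gene, had 2098, 4228 and 3739 counts, lowest in AL, as for Sim1. None of the 5 genes was at 0, and the part of these neurons in the results for Otp and Sim1 was not tested.

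Hmx2 and Hmx3 had a single call between them. Hmx3 had 385, 373 and 294 counts in AL, DR and DR-AL, or 13 CPM (11.7 to 14.3), 11.4 CPM (10.3 to 12.6) and 9.42 CPM (8.38 to 10.6). It fell 1.38-fold in DR-AL against AL (1.18 to 1.61) and was not called in the other comparisons. Hmx2 had 90, 93 and 70 counts, or 3.03 CPM (2.44 to 3.73), 2.84 CPM (2.29 to 3.48) and 2.24 CPM (1.75 to 2.83). Its 3 intervals overlapped, and its log2 fold change in DR-AL against AL, -0.43, had an interval from -0.91 to 0.03, so a difference was not detectable at this depth.

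Ranked by level, AL was the highest and DR-AL the lowest hypothalamus library for 9 of 10 members, Sim1 being the other. The same order held for 25% of 19320 genes tested and for 45.9% of 355 genes at least 8-fold higher in hypothalamus than in hippocampus, a set chosen after seeing the data that includes the 10 members. Of those 355 genes, 45 were called higher and 144 lower in DR-AL against AL, with a median log2 fold change of -0.31. Since the same 3 libraries give every gene's order, these shares are not independent of the comparisons above.

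The make-up of the members' summed counts also differed between libraries. Sim1 held 3.3% of 9710 member counts in AL (exact 95% interval 2.95 to 3.67), 5.55% of 8500 in DR (5.08 to 6.06) and 8.03% of 5454 in DR-AL (7.32 to 8.78). Nr5a1 held 13.4% in AL (12.7 to 14.1), 10.3% in DR (9.69 to 11) and 6.75% in DR-AL (6.1 to 7.45). Its share was thus highest in AL and lowest in DR-AL, the reverse of Sim1. Fezf1 took 15.5%, 12.3% and 10.1% of the member counts in AL, DR and DR-AL, and Rax 3.04%, 2.75% and 1.19%. Otp (20.7%, 21.7% and 24.1%) and Six3 (17.9%, 18.8% and 21.8%) took larger shares in DR-AL than in AL.

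**Figure D2:**
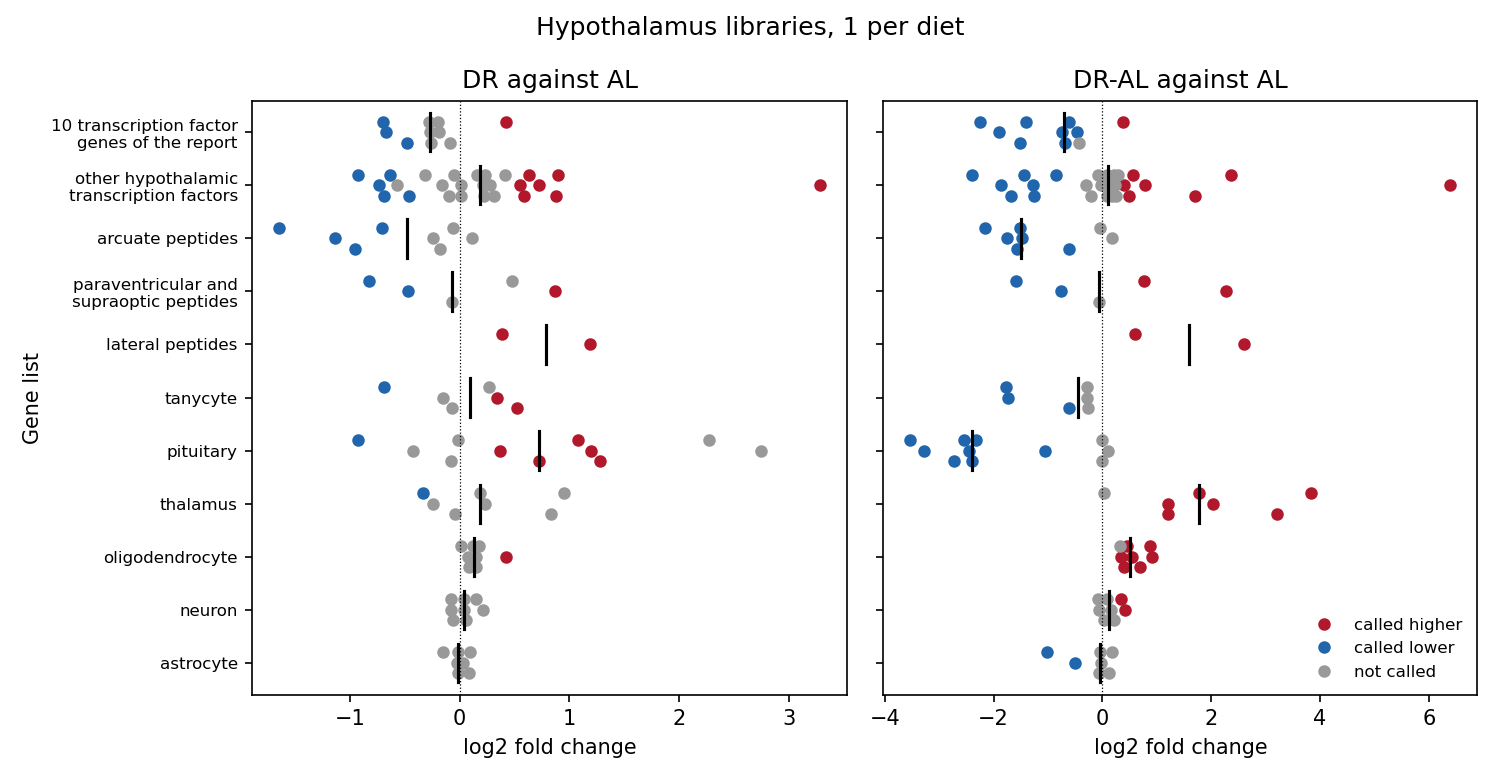
Log2 fold change of each tested gene of the members and of other gene lists in the hypothalamus, with DR (left) and DR-AL (right) each set against AL; dots are genes, coloured by whether they were called higher, called lower or not called, and black bars are list medians. The members' bar stands at -0.26 in DR and -0.71 in DR-AL.

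Other transcription factor genes of the hypothalamus were divided. Of 26, 7 were called higher and 5 lower in DR against AL (median log2 fold change 0.18), and 7 higher and 7 lower in DR-AL against AL (0.10). Tbx3, a factor of arcuate neurons and tanycytes, had 1343, 919 and 442 counts in AL, DR and DR-AL, and Bsx, a factor of arcuate and dorsomedial neurons, had 971, 692 and 376, both in the order of Nr5a1 and Fezf1. Nr0b1, a nuclear receptor that acts with Nr5a1, had 97, 72 and 19 counts. In the other direction, Lhx6 had 100, 207 and 545 counts and Lhx8 had 2, 26 and 220. Between regions, 22 of the 26 were called higher in hypothalamus than in hippocampus. Lhx6 and Lhx9 were called lower (ratios of 0.446 and 0.287). By level, 9 of the 26 had AL highest and DR-AL lowest, and 10 had the reverse order. Paralogues of the members gave 2 higher and 3 lower of 8 tested in DR against AL, and 1 higher and 5 lower in DR-AL against AL (median -0.67). Nr5a2, the paralogue of Nr5a1, had 194, 130 and 48 counts, and Nkx2-4, the paralogue of Nkx2-1, had 282, 226 and 124.

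Markers of neighbouring nuclei and tissues differed between the same libraries. Arcuate peptide genes gave 0 higher and 4 lower of 8 in DR against AL and 0 higher and 6 lower in DR-AL against AL (median -1.50), with summed levels of 370.2, 241.5 and 181.3 CPM and the highest FPKM in Npy for AL and DR and in Cartpt for DR-AL. Of the 8, 1 is a locus shared by Golt1a and Kiss1, which cannot be assigned to Kiss1 alone. Both lateral hypothalamic peptide genes, Hcrt and Pmch, were called higher in both comparisons with AL, with summed levels of 163.7, 237.2 and 352.7 CPM; on the FPKM scale Pmch was the higher in AL and DR and Hcrt in DR-AL. Of 4 suprachiasmatic genes, 3 were called higher in DR and 1 in DR-AL, with summed levels of 36.2, 76.2 and 52.6 CPM and Rgs16 the highest on the FPKM scale. Rgs16 made 23.1, 51 and 39.3 CPM of these sums. The list is not particular to this nucleus: Vip was called lower in hypothalamus than in hippocampus (ratio of 0.584). None of the genes of these 3 lists was at 0 in any hypothalamus library.

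Thalamus markers gave 0 higher and 1 lower of 7 in DR against AL and 6 higher and 0 lower in DR-AL against AL, with summed levels of 67.3, 62.4 and 170.4 CPM, Tcf7l2 the highest in FPKM and none at 0. Oligodendrocyte markers gave 1 higher of 8 in DR and 7 higher in DR-AL, with summed levels of 3908.8, 4335.4 and 5858.9 CPM, Mbp the highest in FPKM and none at 0. Pituitary genes gave 5 higher and 1 lower of 11 tested in DR and 0 higher and 8 lower in DR-AL, with summed levels of 25.2, 33 and 5.51 CPM. Cga had the highest FPKM of the pituitary genes in each library. Pou1f1 and Ghrhr were at 0 in AL, no pituitary gene of the list was at 0 in DR, and Pou1f1, Gnrhr and Ghrhr were at 0 in DR-AL. Pan-neuronal markers gave 0 calls of 8 in DR and 2 higher in DR-AL, and astrocyte markers gave 0 of 7 and then 2 lower. The part of the dissection, of these cell types and of these nuclei in the members' results was not tested.

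Telencephalic markers varied as well. Telencephalic transcription factor genes gave 8 higher and 2 lower of 14 in DR and 4 higher and 6 lower in DR-AL, Zbtb20 being read at a locus shared with Mir568, with summed levels of 250.0, 256.9 and 197.8 CPM. Markers of telencephalic excitatory neurons gave 3 higher of 6 in DR, and 2 higher and 3 lower in DR-AL, with summed levels of 970.6, 1048.4 and 759.3 CPM, of which Camk2a made 721.0, 736.7 and 590.6. Slc17a7, the cortical glutamate transporter gene, had 58, 1147 and 368 counts and Slc30a3 had 21, 277 and 152, highest in DR and lowest in AL, and Neurod2 of the telencephalic factors had 9, 94 and 63. The other excitatory markers, Camk2a, Nrgn, Ddn and Itpka, were instead lowest in DR-AL. Ddn had 2215, 3771 and 1810 counts and Itpka had 292, 349 and 166. None of these telencephalic genes was at 0, and their part in the members' results was not tested. Hippocampus markers gave 1 higher and 3 lower of 9 in DR and 2 higher and 4 lower in DR-AL, striatum markers 1 higher and 1 lower of 7 and then 1 higher and 3 lower, choroid plexus markers 0 higher and 2 lower of 9 and then 1 higher and 4 lower (1 of the 9 a locus shared by Aqp1 and Fam188b), and ependyma markers 2 higher of 6 and then 1 higher and 2 lower.

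In the hippocampus, Six3 and Nkx2-1 held most of the members' counts and the other 8 had at most 9 in any library, and the DR-AL library held more than AL and DR together. Of 9 members tested, 4 were called higher in DR-AL than in AL, beside 4.00% of 18804 genes. Against DR, 5 were called higher in DR-AL, beside 3.63%, and these comparisons share the DR-AL library. The median log2 fold change against DR, 1.83, is that of Hmx2 and Hmx3, with 0 counts in DR and 1 in DR-AL. The pseudocount sets that value, so it does not measure the size of the change. In DR against AL 0 were called, where 1.37% of all genes were called higher and 2.67% lower. Six3 had 50, 25 and 92 counts for AL, DR and DR-AL, or 1.23, 0.801 and 3.66 CPM, and rose 2.96-fold in DR-AL against AL (2.08 to 4.27) and 4.57-fold against DR (2.91 to 7.42). Nkx2-1 had 16, 10 and 25 counts, or 0.395, 0.32 and 0.994 CPM, and rose 2.52-fold (1.29 to 5.04) and 3.1-fold (1.44 to 7.24). Otp had 2, 0 and 9 counts, a ratio of 7.24 with an interval from 1.5 to 68.9, and Fezf1 had 0, 0 and 4 counts. The Z test is liberal at counts this low, and the lower bound for Fezf1 was a ratio of 1.06 against AL and 0.819 against DR. Sim1, with 0 counts in DR and 6 in DR-AL, was also called against DR, with a lower bound of 1.46. Nr5a1 was at 0 in all 3 hippocampus libraries, and Six6 had 1 count in each.

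Striatum markers moved with these members in the hippocampus. All 7 tested were called higher in DR-AL than in AL, with a median log2 fold change of 1.13, summed levels of 115.3, 105.0 and 244.1 CPM in AL, DR and DR-AL, Ppp1r1b the highest in FPKM and none at 0. Against DR all 7 were also called higher in DR-AL, with a median of 1.07. Choroid plexus markers shifted between these libraries too. All 9 were called lower in DR than in AL (median -0.66) and higher in DR-AL than in DR (0.81). In DR-AL against AL, 2 of them were called higher and 0 lower. The part of choroid plexus tissue in the members' counts was not tested. Of the 355 genes higher in hypothalamus, 342 were tested in hippocampus, and 54 were called higher and 6 lower in DR-AL against AL. The part of tissue at the border of the dissection in the hippocampal counts of Six3 and Nkx2-1 was not tested.

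Loci on the strand opposite to a member were compared with it in the same library. The plus-strand locus listed as Fezf1, opposite to the annotated gene, had 905, 676 and 378 counts in AL, DR and DR-AL and was called lower in both comparisons with AL, by 1.48-fold (1.34 to 1.63) and 2.52-fold (2.23 to 2.85). Its ratio to the minus-strand Fezf1 locus was 0.602 in AL (0.554 to 0.654), 0.648 in DR (0.587 to 0.715) and 0.687 in DR-AL (0.601 to 0.785), with overlapping intervals. Whether these counts come from an antisense transcript or from Fezf1 reads placed on the wrong strand was not tested. Six3os1, the antisense RNA gene at Six3, had 617, 702 and 494 counts, and its ratio to Six3 was 0.355 in AL (0.324 to 0.39), 0.44 in DR (0.402 to 0.481) and 0.415 in DR-AL (0.373 to 0.462). The ratio to Six3 was thus higher in DR than in AL beyond counting error.

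The gene 4930447C04Rik, which overlaps the start of Six6 on the opposite strand, had 1895, 1744 and 1260 counts. Its ratio to Six6 was 3.11 in AL (2.84 to 3.41), 3.14 in DR (2.85 to 3.46) and 5.25 in DR-AL (4.57 to 6.05). In the DR-AL library Six6 was thus lower than this overlapping gene by a wider margin than in the other 2. This gene was chosen after seeing the data.

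Over all 15 libraries, the loci whose log2 levels were most like the mean of the members were Foxb2 (Pearson r 0.9959), Mir7-2 (0.9950), Bsx (0.9938), C87198 (0.9933), Fgf17 (0.9933), E030019B13Rik (0.9927), Agrp (0.9925), Calcr (0.9924), Nkx2-4 (0.9924) and Brs3 (0.9920), of 14452 loci compared. This is a description over 15 libraries of 5 tissues, and it follows mainly the difference between hypothalamus and the other tissues. Within the hypothalamus, 7 of these 10 loci were called lower in DR-AL against AL (Foxb2, Mir7-2, Bsx, E030019B13Rik, Agrp, Nkx2-4 and Brs3), and Bsx and Nkx2-4 also in DR against AL. Agrp, a peptide gene of arcuate neurons, had 440, 525 and 165 counts in AL, DR and DR-AL, and Calcr, the calcitonin receptor gene, had 1325, 1230 and 1118 and was not called in either comparison with AL.

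Outside the brain the members had few counts, with a pair of exceptions in fat. Sim1 had 23, 85 and 161 counts in the fat of AL, DR and DR-AL mice, or 0.877, 3.72 and 5.89 CPM, and rose 4.24-fold (2.65 to 7.05) and 6.71-fold (4.32 to 10.9) against AL. Nr5a1, which is also known from the gonads and the adrenal cortex, had 12, 46 and 305 counts, or 0.458, 2.01 and 11.1 CPM, and rose 4.4-fold (2.29 to 9.13) and 24.4-fold (13.7 to 47.7). In fat, 35.3% of 20382 genes were called higher in DR against AL and 46.1% in DR-AL against AL, and the median log2 fold change over all genes was 0.23 and 0.39. On the deposited FPKM scale, Sim1 in fat was 0.168, 0.535 and 0.474 in AL, DR and DR-AL. Nr5a1 was 0.119, 0.284 and 0.828 in the same libraries, so the differences from AL were smaller than in CPM. The FPKM intervals of Sim1 in DR (0.427 to 0.661) and DR-AL (0.404 to 0.553) overlapped.

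The fat was epididymal, and genes of the testis were found in the same libraries, in lists chosen after seeing the data. Of 5 germ cell genes, 5 were called higher in DR and 5 in DR-AL fat against AL, with summed levels of 3.24, 427.6 and 2136.8 CPM in AL, DR and DR-AL and Prm1 the highest on the FPKM scale in DR-AL. Leydig cell genes gave 5 higher of 6 and then 6 of 6, with summed levels of 78.5, 125.1 and 362.1 CPM. The highest of these on the FPKM scale was a locus shared by Insl3 and Jak3, with 62.8, 87.9 and 248.2 CPM, which cannot be assigned to Insl3 alone. Sertoli cell genes gave 1 higher of 4 and then 3 of 4, with summed levels of 14.8, 20.3 and 32.9 CPM. Fshr was at 0 in AL. Wt1, the highest on the FPKM scale, made 12.4, 18.5 and 23.7 CPM of these sums. In FPKM it fell instead, at 4.18, 3.63 and 2.61 in AL, DR and DR-AL. The part of testis tissue in the fat levels of Sim1 and Nr5a1 was not tested.

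Hmx3 and Hmx2 were counted in colon at low levels. Hmx3 had 32, 34 and 25 counts in AL, DR and DR-AL colon and Hmx2 had 16, 15 and 17, and neither was called in a comparison with AL. In liver the 10 members together had 2, 6 and 0 counts.

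On the genome (GRCm38 positions from GENCODE), only Hmx3 (chr7:131542867-131544925) and Hmx2 (chr7:131548773-131558014) lie close together among the members, 3847 bases apart on the plus strand. Nr5a1 lies at chr2:38692656-38714542, Fezf1 at chr6:23245044-23248362, Nkx2-1 at chr12:56531958-56536908 and Rax at chr18:65928277-65939787, all on the minus strand. Sim1 lies at chr10:50894754-50989152, Six6 at chr12:72939892-72944899, Otp at chr13:94875602-94885130 and Six3 at chr17:85613608-85629302, all on the plus strand.

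Promoters were read from RefSeq (GRCm38.p6), as the 250 bases before and 50 after a gene's start, to show what the members share in sequence. An entry was matched for 8 members, with 9 entries since Hmx2 has 2, and Rax and Nr5a1 had none. The member entries held 2 to 39 CpG dinucleotides with a median of 14, against a median of 7 over 32851 promoters. The CCAAT box (CCAAT on either strand) was found in 5 of 9 member entries and in 37.4% of all promoters. Fezf1 had 4 copies and Six3 had 3, and 3.37% of all promoters held at least 3. The GC box (GGGCGG on either strand) was found in 6 of 9 entries, against 35.7% of all, and the TATA box (TATAAA on either strand) in Sim1 and in 1 entry of Hmx2, against 13.6%. The homeodomain core TAATTA, the NKX2 core CACTTG, the NR5A site CAAGGTCA and the E-box CACGTG, each searched on both strands, were found in 0 of 9 entries, and in 5.29%, 13.6%, 1.56% and 7.15% of all promoters.

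Sequence before the RefSeq start is printed for 4 members that were called lower in DR-AL against AL, to set the promoters with CCAAT boxes beside 1 without. Only the part of each window with no annotated exon is given, 5′ to 3′ on the gene's strand, and capitals mark CCAAT or its reverse complement ATTGG. The windows are chr17:85620584-85620789 on the plus strand for Six3, chr6:23248363-23248514 on the minus strand for Fezf1, chr13:94875386-94875601 on the plus strand for Otp and chr12:56536909-56537158 on the minus strand for Nkx2-1. The Six3 window lies inside the span that GENCODE annotates for the gene, which begins further upstream. Six3 holds 3 boxes in this part, Fezf1 and Otp hold 1 each, and Nkx2-1 holds 0.
Six3: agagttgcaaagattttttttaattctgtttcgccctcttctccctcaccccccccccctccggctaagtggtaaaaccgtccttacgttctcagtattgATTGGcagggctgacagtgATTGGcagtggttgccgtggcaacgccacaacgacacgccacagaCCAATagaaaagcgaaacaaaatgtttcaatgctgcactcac
Fezf1: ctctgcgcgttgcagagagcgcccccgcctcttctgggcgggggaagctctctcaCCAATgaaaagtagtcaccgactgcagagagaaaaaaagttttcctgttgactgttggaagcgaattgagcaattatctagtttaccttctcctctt
Otp: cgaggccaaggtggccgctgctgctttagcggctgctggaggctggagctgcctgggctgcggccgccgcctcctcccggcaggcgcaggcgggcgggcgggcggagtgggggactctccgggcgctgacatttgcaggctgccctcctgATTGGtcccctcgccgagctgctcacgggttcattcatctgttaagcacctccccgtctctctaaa
Nkx2-1: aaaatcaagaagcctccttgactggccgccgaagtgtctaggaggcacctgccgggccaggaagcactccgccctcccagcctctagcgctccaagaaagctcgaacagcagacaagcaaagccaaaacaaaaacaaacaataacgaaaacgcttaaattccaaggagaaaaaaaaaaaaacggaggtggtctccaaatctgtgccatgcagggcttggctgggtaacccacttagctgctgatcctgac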

How the data were processed

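The deposited counts are raw counts per locus and the deposited FPKM are per kilobase of transcript and scaled to the fragments of the library; per the methods, the authors normalized each tissue to its AL group, and whether that holds for the FPKM columns was not tested. The authors made ribosomal-RNA-depleted, stranded, paired-end libraries from RNA pooled from 5 mice per tissue and diet, aligned reads with their orientation to mm10 and removed duplicates, while the labels list mm9 and DESeq2. Positions were therefore taken from GENCODE M21 by gene symbol. The members and gene lists were chosen with earlier results of these data known. Named genes were the members, the genes of the lists and the 10 loci most like the members' mean by Pearson r among loci of at least 1 CPM in hypothalamus.

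CPM used the total on named loci. Fezf1 was counted on its annotated strand. Regions were compared with edgeR 4.0.16 (R 4.3.3; TMM, filterByExpr, quasi-likelihood test, diet as a term, 3 against 3 libraries), with DESeq2 1.42.0 as an alternative. Diets were compared with a Z test on square roots of count proportions over genes with at least 1 count, and with exact intervals (Python 3.11.15, scipy 1.17.1). Log2 fold changes used a pseudocount of 0.5 on scaled counts. Other scalings, filters, fold thresholds, error models and FPKM were tried as alternatives, of which the summed Fezf1 loci and the estimated BCV were chosen after seeing the data. The steps were tested on simulated data.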

Additional observations from a re-analysis of the deposited data

Results flagged for a closer look

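In DR-AL against AL, 4 members were called lower in the hypothalamus library and higher in the hippocampus library, and the difference between regions was not tested. Of all genes, 9.03% were called lower in hypothalamus and 4.00% higher in hippocampus, and the share called both ways was not computed. The higher hippocampal level is not particular to the members. In the same comparison 54 of 342 genes higher in hypothalamus and 7 of 7 striatum markers were called higher in hippocampus. The log2 fold change was -0.74 in hypothalamus and 1.30 in hippocampus for Nkx2-1, -0.62 and 1.55 for Six3, and -0.68 and 2.52 for Otp. For Fezf1 it was -1.52 in hypothalamus, and the hippocampus, with 0 counts in AL, gives only a lower bound, 0.09. The hippocampal values rest on 16 and 25 counts for Nkx2-1, 50 and 92 for Six3, 2 and 9 for Otp, and 0 and 4 for Fezf1 in AL and DR-AL.

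Counts of a pair of members rose above the AL level in fat, a tissue outside the main comparisons. Sim1 had 85 counts in the DR and 161 in the DR-AL library, against 23 in AL. Nr5a1 had 46 counts under DR and 305 under DR-AL, against 12 under AL. Of 5 members tested in fat, these 2 were called higher in DR and in DR-AL, beside 35.3% and 46.1% of all genes. In FPKM, Sim1 was 0.168, 0.535 and 0.474 and Nr5a1 0.119, 0.284 and 0.828 in AL, DR and DR-AL. Germ cell genes summed to 3.24, 427.6 and 2136.8 CPM in the same libraries, and the part of testis tissue was not tested.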

How the results depend on the processing

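The region count was 10 of 10 under the alternatives tried and 10 to 10 when each of the 6 libraries was left out in turn, but it could hardly change, since the members are genes chosen as hypothalamic and all but Six3 passed the filter through the hypothalamus libraries alone. For DR against AL the 4 calls became 0 at a 2-fold minimum, 0 in edgeR's exact test with a BCV of 0.1 and 0 with the BCV of 0.124 estimated over the 3 hypothalamus libraries. For DR-AL against AL the 9 calls became 4, 6 and 4 under the same alternatives, and for DR-AL against DR the 7 calls became 3, 4 and 3, and 6 with DESeq size factors. A higher fold or a wider error model asks more of each gene by construction. The members' median log2 fold change for DR-AL against AL, -0.71, was -0.57 on FPKM with a pseudocount of 1, which weighs most on low values. Among values for single members under the alternatives, 37 calls were no longer past the threshold and 173 values kept their side of it; many of the 173 could not change, such as a stricter threshold applied to members that had no call. The alternative scalings moved the all-gene median by at most 0.04 (log2). With DESeq size factors 46.9% of all calls in DR-AL against AL were higher, against 40.2% with library totals. Diets could not be compared with replicates within a tissue, because each diet has 1 library per tissue. Depth limits the hippocampal values: 3 counts are 0.0741 to 0.119 CPM there.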

Other observations

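Positions in the count table overlapped the GRCm38 annotation for 13.5% of 20477 gene symbols and for 0 members, so positions were taken by symbol. Antisense genes annotated at Nkx2-1, Rax and Nr5a1 carry no name of their own in the table and were not used here. Hmx2 and Hmx3 lie within the annotated span of Fgfr2, on the opposite strand.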
